A study of Mus musculus with 9 samples.

Results

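The genes described here are 9 enzymes that make serine and pass its one-carbon units on to folate: Phgdh, Psat1, Psph, Shmt1, Shmt2, Mthfd1, Mthfd2, Mthfd1l and Aldh1l2. They were chosen by name from the 54347 genes of the table, for their place in the pathway and with earlier results of these data known. All 9 were listed. RNA was sequenced from 6 pancreatic neuroendocrine tumors (PanNETs) of INS-p25OE mice and from 3 samples of normal islets. In this bi-transgenic strain, kept on a C57BL/6 background, the driver Ins2-rtTA, under the insulin promoter, turns on tetOp-p25GFP in β-cells once doxycycline is given. The fusion carries p25, the fragment of p35 that activates the kinase Cdk5 aberrantly. Doxycycline was supplied in drinking water after weaning, which took place between 3 and 4 weeks of age. Libraries M1, M2 and M3 came from tumors that the study describes as functional, and M4, M5 and M6 from non-functional tumors. The study uses functional for tumors that raise hormone levels in the blood, and it found insulin in all tumors it stained. NI1, NI2 and NI3 are labelled as normal β-islets of C57BL/6 mice, with no transgene or treatment named. M2 was the only library from a female. The methods of the study name littermates without the transgenes, housed together with the tumor mice, as its normal controls. Whether the islet libraries came from such mice and whether those drank doxycycline, the ages of the mice and any pooling of islets are not given in the sources used here.

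Serine is made from the glycolytic intermediate 3-phosphoglycerate by Phgdh, Psat1 and Psph in turn. Serine hydroxymethyltransferase then moves a carbon from serine to tetrahydrofolate, in the cytosol (Shmt1) or in mitochondria (Shmt2), and leaves glycine. In mitochondria the carbon passes through Mthfd2 and Mthfd1l to formate, which leaves for the cytosol, where the trifunctional enzyme Mthfd1 puts it back on folate for purine, thymidylate and methionine synthesis. Aldh1l2 oxidises the mitochondrial carbon to carbon dioxide. Many of these genes, among them Phgdh, Psat1, Shmt2, Mthfd2 and Aldh1l2, are known targets of ATF4, the transcription factor of the amino acid and stress response. Bulk RNA does not tell apart fewer cells of a type from less RNA per cell.

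Between 36468280 and 63637175 reads were counted per library. Values are given as CPM, the count of a gene relative to the TMM-scaled total of its library (1 CPM is 1 read in 1000000). One library went against its label in part. Cdk5r1, the gene for p35 and thus a check on the transgene, stood at 149 to 401 CPM in the 6 tumors, at 18.4 CPM in NI2 and at 12.5 CPM in NI3, but at 280 CPM in the library labelled NI1. Over all tested genes NI1 and M6 were the closest of the 36 pairs of libraries, with a root mean square difference of 0.318 on the log2(CPM + 1) scale, against 0.482 between NI2 and NI3 and 0.715 or more between NI1 and any other library. The 9 synthesis genes followed the same pattern: each was nearer in NI1 to M6 than to the mean of NI2 and NI3, and the NI1 level was 0.867 to 1.34 times the M6 level but 0.167 to 3.96 times the mean of NI2 and NI3. Some other genes put NI1 on the islet side. Fos was at 156 CPM in NI1 and 1.41 to 3.92 CPM in the tumors, and Gcg at 787 CPM against 10.03 to 238.6 CPM. The hormone genes Sst and Ppy did not. Sst was at 79.9 CPM in NI1 and 2.75 to 2528 CPM in the tumors, and Ppy at 209 CPM against 60.8 to 1716 CPM. Ins2 was at 88900 CPM in NI1 and 88720 CPM in M6. What the NI1 sample holds was not tested. All comparisons with islets are therefore given with NI1, without it, and, where it matters, without M6 as well.

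Beta cell markers were counted in every library, with a sum over 11 genes of 19340 to 117700 CPM in tumors and 122800 to 366200 CPM in islets. Some lists of other cell types and of cell states also separated tumors from islets. With NI1 among the islets, the ranges overlapped for the alpha, delta and PP cell, neuroendocrine, ductal, endothelial, fibroblast and lymphoid lists. Without NI1 they still overlapped for the ductal, endothelial and fibroblast lists. All tumors were below NI2 and NI3 for the alpha, delta and PP cell, neuroendocrine and lymphoid lists. The summed level of 9 proliferation genes was 797 to 1514 CPM in tumors, 719 CPM in NI1, 229 CPM in NI2 and 122 CPM in NI3. The 11 genes of the response to tissue dissociation summed to 92.5 to 160 CPM in tumors, 590 CPM in NI1, 2663 CPM in NI2 and 1420 CPM in NI3. The 20 acinar genes summed to 21.96 to 372 CPM in tumors, 520 CPM in NI1, 666 CPM in NI2 and 8651 CPM in NI3. Ptf1a, a defining acinar factor, was at 0 in M1 to M5 and near 0 in M6 (0.018 CPM), NI1 (0.034 CPM) and NI2 (0.024 CPM). It was at 0.768 CPM in NI3. The part of these differences in the results for the synthesis genes was not tested. M4 carried 32.1% of its counts on mitochondrial genes, against 1.76% to 8.41% elsewhere, and removing those genes from all libraries changed no call among the 9 genes.

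**Figure D1:**
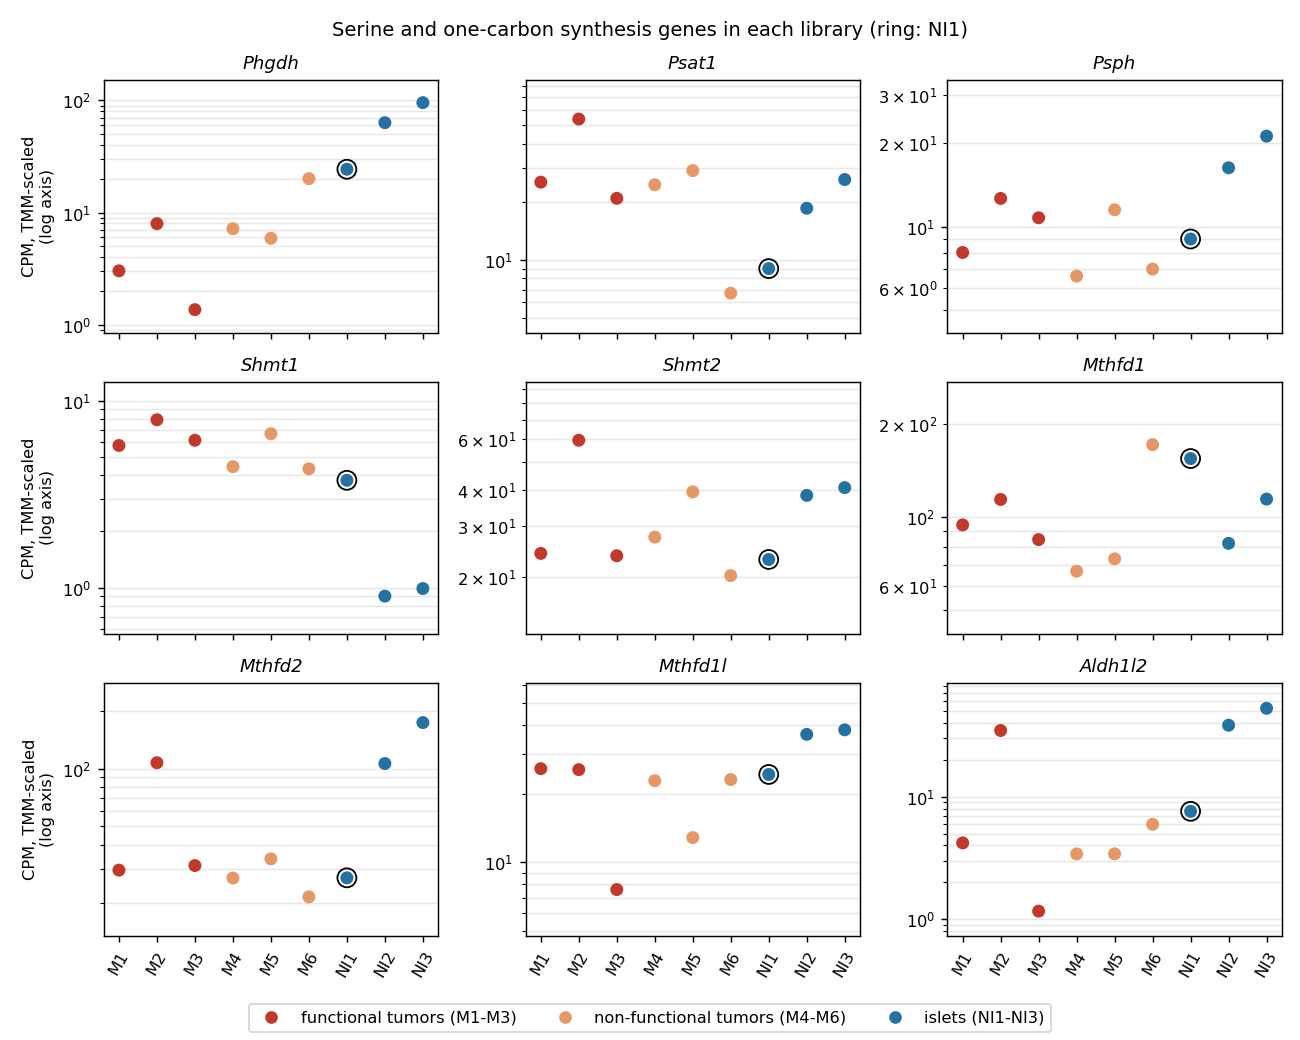
Level of each of the 9 genes in each library (TMM-scaled CPM, log axis), with functional tumors in red, non-functional tumors in orange and islets in blue, and a ring around NI1. Phgdh is lower in all 6 tumors than in any islet library, Shmt1 is higher in all 6, and NI1 is nearer to M6 than to the mean of NI2 and NI3 in every panel.

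Phgdh, the first and committed enzyme of serine synthesis, was low in the tumors, and Shmt1, the cytosolic serine hydroxymethyltransferase, was high. In the comparison of 6 tumors with NI2 and NI3, Phgdh was 10.5-fold lower and Shmt1 6.18-fold higher, and both passed the test. Shmt1 entered that test through the tumors alone, the group where it is high, since NI2 and NI3 were below 1 CPM. None of the other 7 genes passed it. With the library labelled NI1 among the islets, the log2 fold changes of both genes kept their sign but 0 of the 9 passed.

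Phgdh (ENSMUSG00000053398) lies on chromosome 3 of GRCm38 from 98313170 to 98339990, on the minus strand. Its level was 3.02, 7.97 and 1.36 CPM in the functional tumors M1, M2 and M3. The non-functional tumors M4, M5 and M6 held 7.17, 5.90 and 20.1 CPM. Of the islet libraries, NI1 held 24.3 CPM, NI2 63.3 CPM and NI3 95.5 CPM. Every tumor was below every islet library, with M6 and NI1 next to each other across the gap. M3, the lowest tumor, was counted at 75 reads and NI3 at 3853. With all 9 libraries the log2 fold change of tumors against islets was -3.01 (SE 0.68, adjusted p = 0.133 from the quasi-likelihood test of edgeR with Benjamini-Hochberg adjustment over 15532 genes). Without NI1 it was -3.39 (SE 0.70, edgeR adjusted p = 0.0227), and without both M6 and NI1 it was -3.97 (SE 0.55, edgeR adjusted p = 0.00723). The set without M6 and NI1 was added after the data were seen. It drops the libraries on each side of the gap, so a larger fold there is no separate support. Leaving out M6 alone also brought Phgdh past the threshold (log2 fold change -3.59, edgeR adjusted p = 0.0333). Without NI1 and without either NI2 or NI3 the call was lost, which leaves a single islet library.

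Shmt1 (ENSMUSG00000020534) lies on chromosome 11 from 60788104 to 60811718, on the minus strand. Functional tumors M1, M2 and M3 held 5.76, 7.91 and 6.14 CPM, and non-functional tumors M4, M5 and M6 held 4.44, 6.66 and 4.33 CPM. NI1 held 3.75 CPM, NI2 0.903 CPM and NI3 0.991 CPM. All 6 tumors were above all 3 islet libraries, narrowly so above NI1. NI2 and NI3 rest on 37 and 40 reads, below the filter level of 1 CPM. Shmt1 thus entered the test through the tumors and NI1, and without NI1 through the tumors alone, the group where it is high. The log2 fold change was 1.64 (SE 0.52, edgeR adjusted p = 0.165) with all 9 libraries, 2.63 (SE 0.44, adjusted p = 0.0113) without NI1 and 2.70 (SE 0.46, adjusted p = 0.0128) without M6 and NI1. The end of Shmt1 overlaps that of Smcr8 on the other strand, and the sources used here do not say whether strand was used in counting. The same holds for Psph with Cct6a, Aldh1l2 with D10Wsu102e and Shmt2 with Ndufa4l2, so that a few reads of either partner cannot be told apart.

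With all 9 libraries, 0 of the 9 genes passed an adjusted p under 0.05 in edgeR, where 0.258% of all tested genes did. At an unadjusted p under 0.05 there were 3 of 9 (Phgdh, Shmt1 and Psph), against 19.8% of all genes. The Wald test of DESeq2 called 2 of 9, Phgdh lower (adjusted p = 0.000673) and Shmt1 higher (adjusted p = 0.0238), against 8.13% of all genes, and limma-voom called 0. The groups did not overlap for 2 of 9, again Phgdh and Shmt1, against 7.67% of all genes. Without NI1, edgeR called 2 of 9, against 8.34% of all genes: 1 of 9 higher, against 5.34%, and 1 of 9 lower, against 3%. DESeq2 then called 4 of 9 (Phgdh, Psph and Mthfd2 lower and Shmt1 higher), against 19% of all genes, and limma-voom called 3 (Phgdh and Aldh1l2 lower, Shmt1 higher). The share of all genes called by limma-voom was not counted. DESeq2 gave no adjusted p for Aldh1l2 in the comparison without NI1. The groups did not overlap for 5 of 9 genes without NI1, against 32.8% of all genes. Without M6 and NI1, edgeR called 2 of 9, against 9.32%. These shares are for 9 genes only, and the median log2 fold change of the 9 was -0.72 with all libraries and -0.93 without NI1, beside 0.03 and 0.05 over all tested genes.

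**Figure D2:**
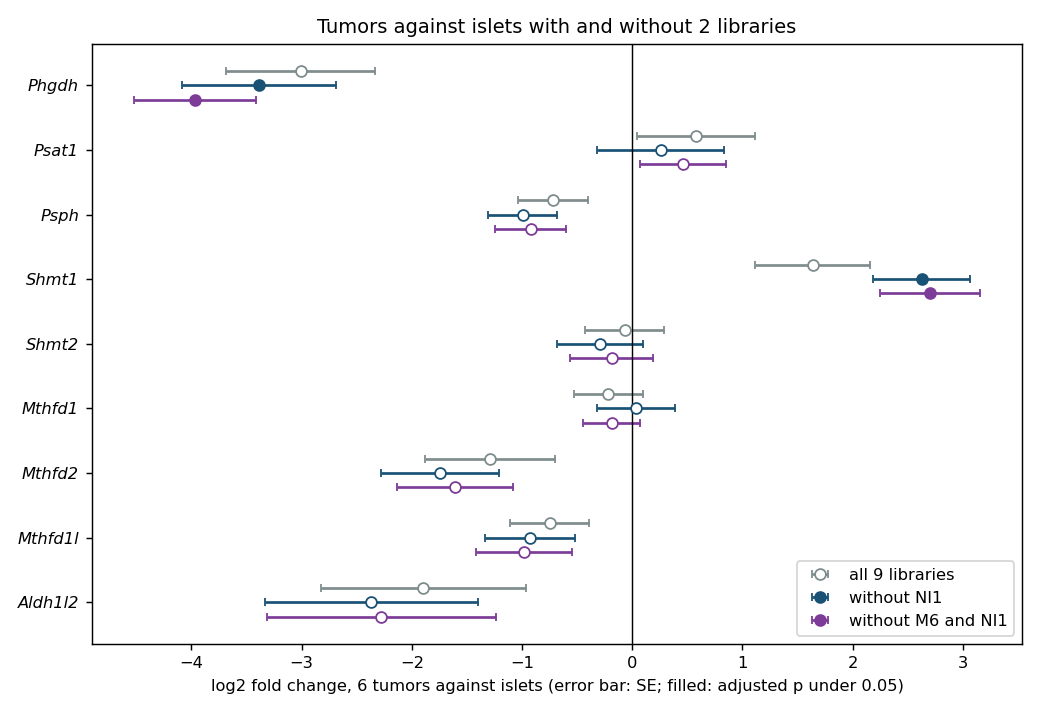
Log2 fold change of the 6 tumors against islets for each gene (error bar, SE), with all 9 libraries in grey, without NI1 in blue and without M6 and NI1 in purple, where 5 tumors remain. Filled points passed an adjusted p under 0.05 in edgeR: Phgdh and Shmt1, in both reduced sets and not with all 9 libraries.

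The stretches of 250 bases before the RefSeq start of Phgdh and Shmt1 are shown because these 2 genes passed the edgeR test without NI1, in opposite directions. For Shmt1 the limit on how it entered that test holds here too. The Phgdh stretch is chr3:98339970-98340219 and the Shmt1 stretch chr11:60811266-60811515, both on the minus strand of GRCm38.p6 and written 5′ to 3′. By the GENCODE positions given above, the Shmt1 stretch lies inside the gene and the Phgdh stretch overlaps its edge. Capitals mark matches on either strand to CCAAT (the CCAAT box), GGGCGG (the GC box), CACGTG (an E-box) or TGATGNAAN (the C/EBP-ATF response element, or CARE, to which ATF4 binds).
Phgdh: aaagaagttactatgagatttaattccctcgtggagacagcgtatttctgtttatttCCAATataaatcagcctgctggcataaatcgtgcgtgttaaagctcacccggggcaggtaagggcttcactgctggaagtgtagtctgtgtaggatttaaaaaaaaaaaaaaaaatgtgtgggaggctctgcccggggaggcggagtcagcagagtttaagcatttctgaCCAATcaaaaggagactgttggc
Shmt1: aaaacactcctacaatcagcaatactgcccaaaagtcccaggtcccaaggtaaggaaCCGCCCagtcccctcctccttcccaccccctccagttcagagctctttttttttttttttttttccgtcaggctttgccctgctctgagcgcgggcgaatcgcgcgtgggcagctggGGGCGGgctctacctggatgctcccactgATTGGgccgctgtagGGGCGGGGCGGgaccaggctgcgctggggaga
The Phgdh stretch holds 2 CCAAT boxes and 0 GC boxes, and the Shmt1 stretch holds 1 CCAAT box, on the other strand, and 4 GC boxes, of which the last pair overlap by a base. Neither holds an E-box or a CARE. RefSeq gave 9 such windows for 8 of the 9 genes, and those of Psat1 and Mthfd2 also lie inside their GENCODE genes. Of these windows, 6 held a CCAAT box and 5 a GC box, beside 33.8% and 32.7% of all 32851 windows of the same length, and 0 held an E-box (6.02% of all) or a CARE (3.44% of all). A match is a description of letters and not a binding site, and these letters may stand outside the window.

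Of the other enzymes of serine synthesis, Psph had a negative and Psat1 a positive log2 fold change, and neither passed the edgeR test. Psat1, the aminotransferase of the second step (chromosome 19, 15904678 to 15947337), was at 25.3, 53.8 and 20.9 CPM in M1, M2 and M3, at 24.5, 29.0 and 6.70 CPM in M4, M5 and M6, and at 8.999, 18.5 and 26.1 CPM in NI1, NI2 and NI3. The groups overlapped, with M6 the lowest library of all and M2 the highest. The log2 fold change was 0.58 (SE 0.54, edgeR adjusted p = 0.572) with all libraries and 0.26 (SE 0.58, adjusted p = 0.813) without NI1. Psph, the phosphatase of the last step (chromosome 5, 129765558 to 129787449), ran from 6.62 to 12.6 CPM over the tumors and stood at 9.02, 16.3 and 21.2 CPM in NI1, NI2 and NI3. All tumors were below NI2 and NI3 but on both sides of NI1. Its log2 fold change was -0.72 (SE 0.32, edgeR adjusted p = 0.250) with all libraries and -0.995 (SE 0.31, adjusted p = 0.0796) without NI1.

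The balance of Psat1 to Phgdh within a library needs no scaling between libraries. The log2 ratio of their counts was 3.07, 2.76 and 3.94 in M1, M2 and M3 and 1.77 and 2.30 in M4 and M5. It was -1.58 in M6, -1.43 in NI1, -1.77 in NI2 and -1.87 in NI3. By this ratio 5 tumors stood on one side, and M6 with the 3 islet libraries on the other. Per kilobase of exon, Phgdh was 31.9 CPM per kb in the mean of NI2 and NI3 (SD 9.16, n = 2) and Psat1 5.24 (SD 1.26), whereas in the tumors Phgdh was 3.05 (SD 2.66, n = 6) and Psat1 6.28 (SD 3.61).

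Shmt2, the mitochondrial partner of Shmt1 (chromosome 10, 127517123 to 127522444), did not differ detectably. It was at 24.1, 59.6 and 23.6 CPM in M1, M2 and M3, at 27.4, 39.4 and 20.2 CPM in M4, M5 and M6, and at 22.9, 38.3 and 40.8 CPM in NI1, NI2 and NI3. M2 lay above every islet library, M6 below, and the other tumors within their range. The log2 fold change was -0.07 (SE 0.35, edgeR adjusted p = 0.936) with all libraries and -0.29 (SE 0.39, adjusted p = 0.675) without NI1. The log2 ratio of Shmt2 to Shmt1 counts was 2.06, 2.91 and 1.94 in M1, M2 and M3 and 2.63, 2.57 and 2.22 in M4, M5 and M6. It was 2.61 in NI1, inside the tumor range, and 5.41 and 5.36 in NI2 and NI3.

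**Figure D3:**
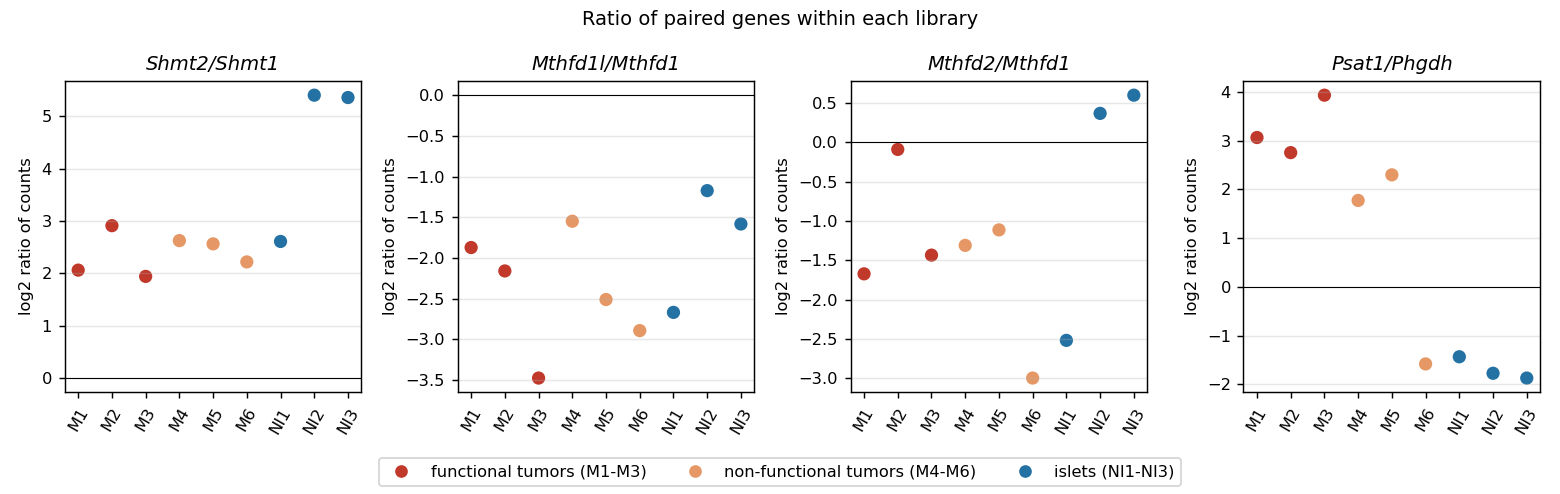
Log2 ratio of the counts of paired genes within each library, colored by group as in the plot of levels. Shmt2 to Shmt1 separates NI2 and NI3 (5.41 and 5.36) from the tumors and NI1 (1.94 to 2.91), while Psat1 to Phgdh puts M6 with the 3 islet libraries below 0.

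The folate enzymes of the mitochondrion were lower in most tumors than in NI2 and NI3, without passing the edgeR test. Mthfd2, the mitochondrial dehydrogenase and cyclohydrolase (chromosome 6, 83305691 to 83325908), was at 29.6, 107 and 31.3 CPM in M1, M2 and M3. M4, M5 and M6 were at 27.0, 33.9 and 21.5 CPM. NI1 was again among the low libraries at 27.0 CPM, while NI2 reached 106 CPM and NI3 173 CPM. Only M2 among the tumors reached the level of NI2. Its log2 fold change was -1.29 (SE 0.59, edgeR adjusted p = 0.257), and -1.75 (SE 0.53, adjusted p = 0.0744) without NI1. Without M2 and NI1 it was -2.29 (edgeR adjusted p = 0.00411) and passed.

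Aldh1l2, the mitochondrial formyltetrahydrofolate dehydrogenase (chromosome 10, 83487450 to 83534140), had the widest range over the tumors in fold terms. It was at 4.19, 34.7 and 1.16 CPM in M1, M2 and M3, at 3.41, 3.42 and 5.95 CPM in M4, M5 and M6, and at 7.59, 38.3 and 52.6 CPM in NI1, NI2 and NI3. M2 was close to NI2, and the other 5 tumors were below all islet libraries. The log2 fold change was -1.90 (SE 0.93, edgeR adjusted p = 0.285) with all libraries and -2.37 (SE 0.96, adjusted p = 0.155) without NI1. Without M2 and NI1 it was -3.65 (edgeR adjusted p = 0.00734) and passed.

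Mthfd1l, the mitochondrial formyltetrahydrofolate synthetase that releases formate (chromosome 10, 3973118 to 4167081), was at 25.8, 25.5 and 7.60 CPM in M1, M2 and M3. M4, M5 and M6 were at 22.8, 12.9 and 23.1 CPM. The islets NI1, NI2 and NI3 were at 24.3, 36.5 and 38.1 CPM. All tumors were below NI2 and NI3, and M3 was the lowest. The log2 fold change was -0.75 (SE 0.36, edgeR adjusted p = 0.279) with all libraries and -0.93 (SE 0.41, adjusted p = 0.181) without NI1.

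Mthfd1, the cytosolic trifunctional enzyme (chromosome 12, 76255298 to 76319803), was at 94.3, 114 and 84.5 CPM in M1, M2 and M3, at 66.8, 73.3 and 171.5 CPM in M4, M5 and M6, and at 154.6, 82.2 and 114.3 CPM in NI1, NI2 and NI3. M6 and NI1 were the highest libraries and the groups overlapped. The log2 fold change was -0.22 (SE 0.31, edgeR adjusted p = 0.732) with all libraries and 0.03 (SE 0.35, adjusted p = 0.963) without NI1, so its sign turned with that library. The log2 ratio of Mthfd2 to Mthfd1 counts was -0.09 in M2, from -2.996 to -1.11 in the other tumors, -2.52 in NI1, and 0.37 and 0.60 in NI2 and NI3. The models of Psat1, Mthfd1 and Mthfd1l contain processed pseudogenes, and an antisense gene crosses Mthfd1, so that some of their reads cannot be assigned with certainty.

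The question of whether functional and non-functional tumors differ was put to each gene in a fit of all 3 groups. The names do not follow insulin RNA. Ins2 was at 57490, 9544 and 7313 CPM in M1, M2 and M3. In M4, M5 and M6 it was at 39100, 61740 and 88720 CPM. For functional against non-functional tumors, edgeR called 0 of 9, against 0% of all genes, and 0 of 9 had an unadjusted p under 0.05, against 10.3% of all genes. DESeq2 called 0 of 9, against 0.72% of all genes, and the groups overlapped for all 9 genes, whereas they did not for 15% of all genes. The smallest p belonged to Phgdh, with a mean of 4.12 CPM (SD 3.44, n = 3) in functional and 11.04 CPM (SD 7.83, n = 3) in non-functional tumors, and a log2 fold change of -1.42 (SE 0.74, edgeR adjusted p = 0.534). The largest difference was that of Aldh1l2 (1.65, SE 1.08, adjusted p = 0.620), for which M2 was at 34.7 CPM and the other 5 tumors between 1.16 and 5.95 CPM. Mthfd1l differed by 0.00 (SE 0.45, adjusted p = 0.999).

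Both tumor kinds were set against the same 3 islet libraries, so that their values are not independent. For functional tumors edgeR called 0 of 9, against 0.476% of all genes, with 2 of 9 at an unadjusted p under 0.05, against 21.1%, while DESeq2 called 2 of 9, against 10.1%. Phgdh had a log2 fold change of -3.89 (SE 0.81, edgeR adjusted p = 0.0806) and Shmt1 of 1.81 (SE 0.58, adjusted p = 0.149). For non-functional tumors edgeR called 0 of 9, against 0% of all genes, with 5 of 9 at an unadjusted p under 0.05, against 14.5%, while DESeq2 called 1 of 9, against 2.55%. Here Phgdh had -2.46 (SE 0.76, edgeR adjusted p = 0.332) and Shmt1 1.44 (SE 0.58, adjusted p = 0.333). Without NI1, edgeR called Phgdh (-4.27, adjusted p = 0.0194) and Shmt1 (2.80, adjusted p = 0.0126) in functional tumors, 2 of 9 against 7.82% of all genes. In non-functional tumors it then called Shmt1 alone (2.44, edgeR adjusted p = 0.0270), 1 of 9 against 3.92%. Without M6 and NI1 it called both genes in each kind, against 9.14% of all genes for functional and 7.04% for non-functional tumors. In all these fits without NI1, Shmt1 entered the test through the tumors alone, the group where it is high. Its calls there are therefore not separate support.

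M2 held the highest tumor level for 6 of the 9 genes, M6 for 2 and M1 for 1. The genes led by M2 were Psat1, Psph, Shmt1, Shmt2, Mthfd2 and Aldh1l2. ATF4 and 28 genes known to respond to it, such as Asns (asparagine synthetase), Chac1 (a glutathione-degrading enzyme) and several aminoacyl-tRNA synthetases, were looked at beside them. M2 was the highest tumor for 22 of these 29 genes. Asns was at 143 CPM in M2 and at 41.9 to 65.0 CPM in the other tumors, and Chac1 at 30.7 CPM against 2.04 to 5.42 CPM. Among the islet libraries NI1 was the lowest for 28 of the 29. The shares of all tested genes with M2 as the highest tumor or NI1 as the lowest islet library were not counted. These counts are therefore not shown to be particular to the genes named. The median of the 29 genes, centered on the mean of each gene over the libraries, was 0.55 in M2 and -0.54 to -0.19 in the other tumors, -0.29 in NI1, 0.70 in NI2 and 0.98 in NI3, on the log2(CPM + 1) scale. M2 differs from the other tumors in sex as well, and the part of sex in these levels was not tested.

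**Figure D4:**
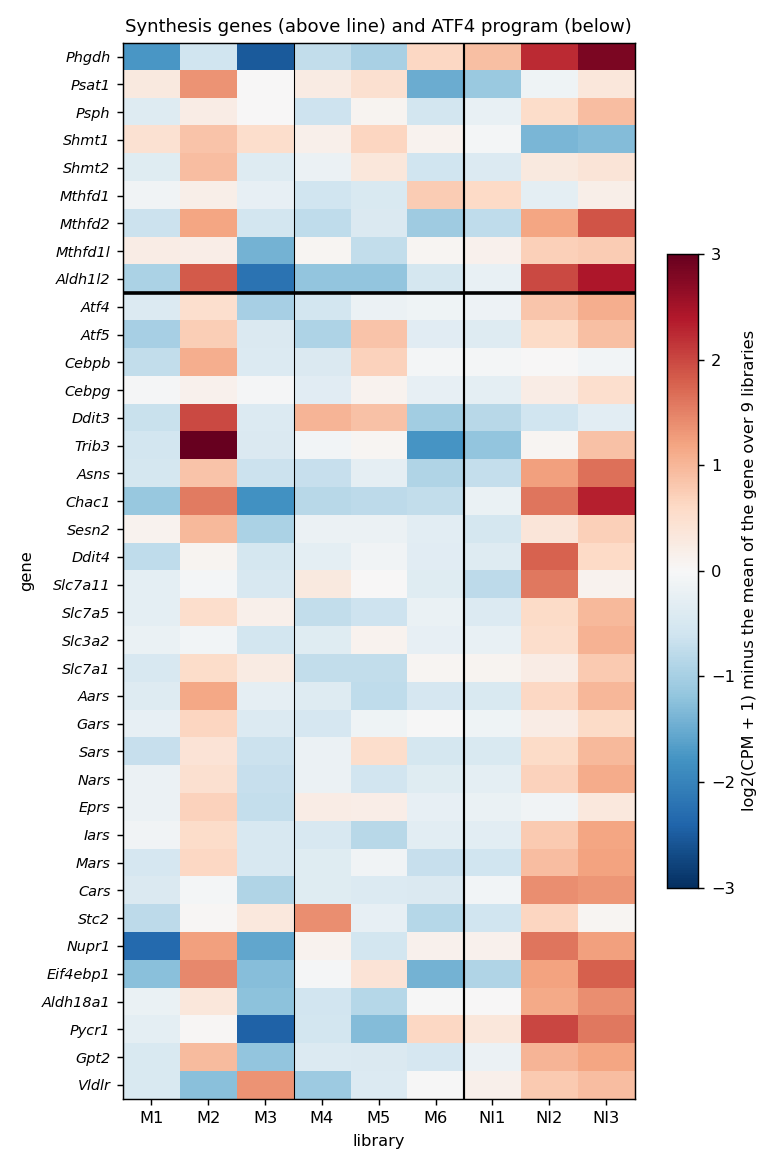
Level of the 9 synthesis genes (above the line) and of 29 genes of the ATF4 program (below) in each library, as log2(CPM + 1) minus the mean of the gene over the 9 libraries, red high and blue low. NI2 and NI3 are red for most rows, M2 is the reddest tumor column, and NI1 resembles M6.

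In the comparison of tumors with islets, edgeR called 0 of the 29 ATF4 genes with all 9 libraries. An unadjusted p under 0.05 was reached by 11 of the 29, all lower, where 9.14% of all genes were lower, and DESeq2 called 4 lower, against 3.17%. Without NI1 edgeR called 8 lower, against 3% of all genes, and 0 higher, against 5.34%, with a median log2 fold change of -1.03 over the 29. Those that fell were Asns, Ddit4, Slc3a2, Nars, Iars, Mars, Cars and Aldh18a1. Asns was at 188 CPM in NI2 and 251 CPM in NI3 and fell by 1.71 on the log2 scale (SE 0.41, edgeR adjusted p = 0.0372). Cars, the cysteinyl-tRNA synthetase, was at 23.9 to 44.0 CPM in tumors, 43.4 CPM in NI1, 122 CPM in NI2 and 117 CPM in NI3, and fell by 1.81 (SE 0.21, edgeR adjusted p = 0.00299). Aldh18a1, the first enzyme of proline synthesis, fell by 1.62 (SE 0.35, edgeR adjusted p = 0.0255). Ddit4, an inhibitor of mTORC1, fell by 1.65 (SE 0.30, adjusted p = 0.0156). Pycr1, the last enzyme of proline synthesis, had -2.25 (SE 0.62, edgeR adjusted p = 0.0546) and Chac1 -2.29 (SE 0.82, adjusted p = 0.112), larger in size but short of the threshold. Without M2 and NI1, 13 of the 29 were called, all lower, against 3.22% of all genes. Without M6 and NI1, 6 were called, all lower, against 3.43%.

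RefSeq gave a promoter window for 24 of the 29 ATF4 genes, and 8 of the 24 genes held the letters TGATGNAAN on either strand, where the windows of the 9 synthesis genes held 0 and 3.44% of all windows did. The matches of Asns (chr6:7693214-7693242, minus strand), Pycr1 (chr11:120643833-120643861, minus strand) and Chac1 (chr2:119351038-119351066, plus strand, match on the other strand) are shown with 10 bases on each side, the match in capitals, since these are the genes named above that hold one.
Asns: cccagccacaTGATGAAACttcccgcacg
Pycr1: gccctgtgtaTGATGCAATgcacaaggct
Chac1: cttccctgccGTTGCATCActcctgccag
Of the 8 genes that fell without NI1, 5 had a window, and 1 of these (Asns) held the motif.

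The enzymes that use the carbon were read from 5 more lists. With all 9 libraries 0 of the 84 tested genes in the 6 lists, the ATF4 list included, passed in edgeR, where 4 of those with an unadjusted p under 0.05 were higher and 21 lower, against 10.7% and 9.14% of all genes, and DESeq2 called 8, against 8.13%. Without NI1 there were 4 of 84 higher, close to the 5.34% of all genes, and 11 lower, against 3%, and the median log2 fold change was -0.41, beside 0.05 over all genes.

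Genes of folate supply and use that passed without NI1 included Tyms, Folr2 and Ggh. Tyms, thymidylate synthase, was at 22.9 to 43.9 CPM in tumors, 19.7 CPM in NI1, 8.30 CPM in NI2 and 7.26 CPM in NI3, and rose by 2.02 on the log2 scale (SE 0.31, edgeR adjusted p = 0.00852). Tyms is a gene of dividing cells, and the sum of the proliferation genes given above was also higher in tumors than in islets. Among the tumors Tyms was highest in M5 and the proliferation sum in M3 (1514 CPM), while M6 was the lowest for both. A link between them was not tested. Folr2, a folate receptor of macrophages, was counted at 4, 2 and 1 reads in NI1, NI2 and NI3 and stood at 0.282 CPM in M6 and 1.45 to 3.29 CPM in the other tumors. It entered the test through the tumors alone, and the islet counts are too few for a fold. The 8 macrophage markers summed to 433 to 1184 CPM in tumors and 235 to 426 CPM in islets. Ggh, which trims the glutamate tail of folates, was at 10.4 to 13.7 CPM in tumors, 12.9 CPM in NI1, 31.7 CPM in NI2 and 34.5 CPM in NI3, and fell by 1.502 (SE 0.20, edgeR adjusted p = 0.00448).

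Of 4 genes of glycine cleavage, Gcsh, its carrier protein, fell by 1.01 on the log2 scale without NI1 (SE 0.26, edgeR adjusted p = 0.0470), and Dld, its dehydrogenase, had -0.76 (adjusted p = 0.113). Gcsh was at 10.05 to 15.8 CPM in tumors, 13.9 CPM in NI1, 19.9 CPM in NI2 and 32.6 CPM in NI3. Of 11 genes of the methionine cycle and transsulfuration, Mat2a, the methionine adenosyltransferase of most tissues, rose by 1.06 (SE 0.18, edgeR adjusted p = 0.0122), from 64.1 and 57.8 CPM in NI2 and NI3 to 112 to 140.5 CPM in tumors, with NI1 at 117 CPM. Mat1a, the form best known from liver, had -1.31 (adjusted p = 0.105) and Nnmt, which spends S-adenosylmethionine on nicotinamide, 1.81 (adjusted p = 0.134). None of 13 purine synthesis genes passed edgeR without NI1, against 8.34% of all genes. At an unadjusted p under 0.05 in edgeR 2 of the 13 were higher, beside 2307 of the 15350 tested genes. DESeq2 called 2 of the 13, against 19% of all genes. The largest were Pfas (1.05, edgeR adjusted p = 0.0656) and Prps2 (0.92, adjusted p = 0.1005).

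Among 13 tested genes of serine and glycine transport and use, Slc1a4, a carrier of serine and alanine, was called without NI1. It was at 22.7 CPM in M2, 2.57 to 4.60 CPM in the other tumors, 4.92 CPM in NI1, 43.6 CPM in NI2 and 72.0 CPM in NI3. M2 was again the tumor with the highest level. It fell by 3.07 on the log2 scale (SE 0.72, edgeR adjusted p = 0.0347). Serinc1, a membrane protein linked to serine incorporation into lipids, had -0.93 (adjusted p = 0.0908).

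**Figure D5:**
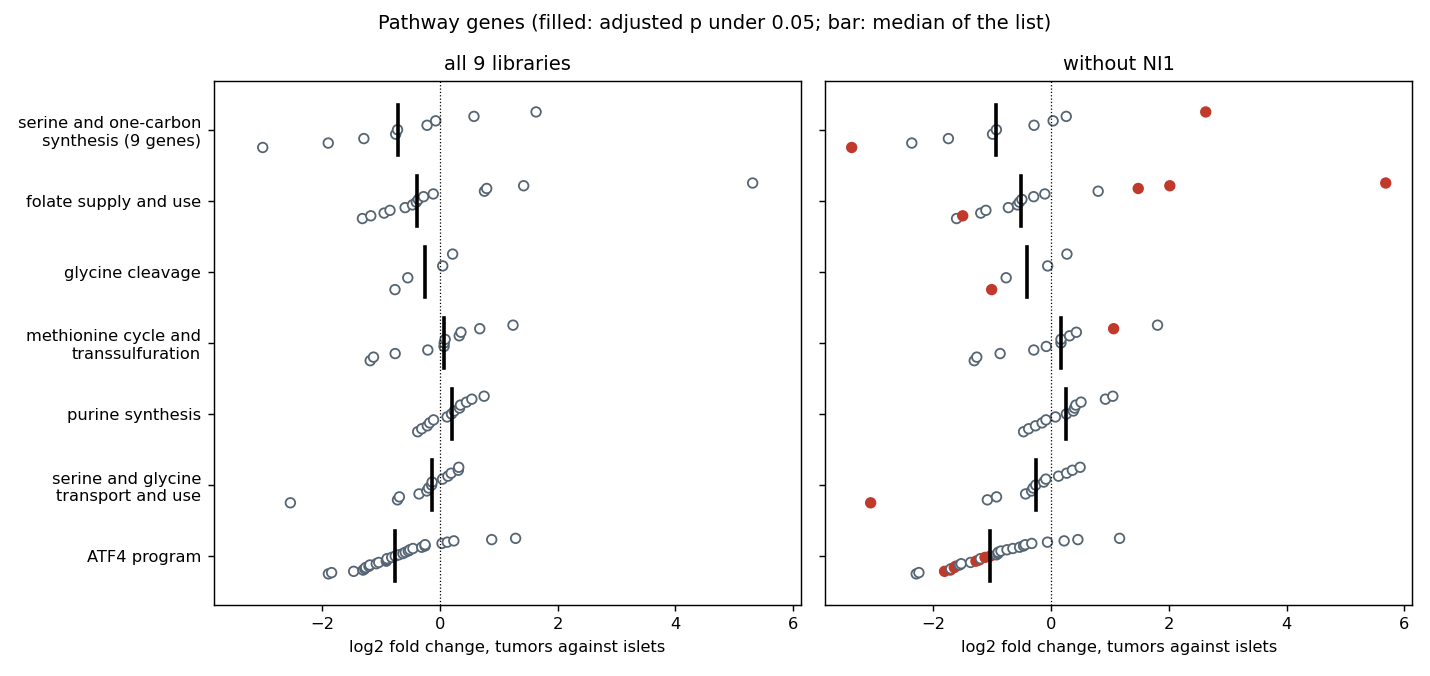
Log2 fold change of tumors against islets for each tested gene of the 9 synthesis genes and of 6 lists around them, with all 9 libraries (left) and without NI1 (right); bars mark the median of a list and filled points an adjusted p under 0.05 in edgeR. No point is filled on the left, and 17 are on the right, among them Phgdh and 8 genes of the ATF4 program on the low side. The point farthest right is Folr2, whose fitted fold rests on 1 to 4 reads per islet library.

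Phgdh was also compared with every other tested gene for the shape of its levels, as the root mean square difference of log2(CPM + 1) after centering each gene over the 9 libraries. The nearest gene was Chd5, a chromatin remodeler of neural tissue, at 0.502. It stood at 1.13 to 6.32 CPM in tumors, 19.3 CPM in NI1, 77.9 CPM in NI2 and 72.5 CPM in NI3. Cpb2 (0.572), Tspan33 (0.575), Fcmr (0.648) and Fcer2a (0.654) came next, and the last pair are known from B cells. The 8 lymphoid markers summed to 45.3 to 527 CPM in tumors, 234 CPM in NI1, 1633 CPM in NI2 and 1087 CPM in NI3. Of the synthesis genes, Aldh1l2 ranked 176, Mthfd1l 593 and Mthfd2 1116 in likeness to Phgdh, while Psat1 ranked 13186 and Shmt1 14657 of the 15531 other genes.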

How the data were processed

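The authors trimmed 75-base single-end reads with Trimmomatic 0.38 and quantified transcripts with Salmon 1.4.0 against mm10. Values in the deposited table are whole-number estimated counts for each gene, although its name says TPM. It was not scaled between libraries by the authors. Library totals are given with the results. Symbols and positions came from GENCODE for GRCm38, promoter windows from RefSeq.

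A gene was tested where 3 or more libraries reached 1 CPM, which kept 15532 with all libraries and 15350 without NI1, and all 9 synthesis genes passed. After TMM scaling, groups were compared by quasi-likelihood in edgeR 4.0.16 (R 4.3.3). P-values were two-sided and adjusted by Benjamini-Hochberg over all tested genes. A gene was called at an adjusted p under 0.05. The SE is the log2 fold change divided by the square root of F. Per-kilobase levels used the merged exons of a gene. The fits were also run on simulated counts that gave every gene the same spread and had no library against its label. That run does not speak to libraries such as NI1 and M6.

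DESeq2 1.42.0, limma-voom (limma 3.58.1), other scalings and filters, a replicate block and leaving out libraries were alternatives. Leaving out M6 with NI1 was added after seeing the data. The genes and lists were chosen with earlier results of these data known. Named pathway genes were those called with or without NI1, plus the 2 of each list with the largest change, and the 5 nearest to Phgdh in shape. Replicates are separate tumors or islet samples, and p-values measure the spread between them. The values of 1 pathway gene are not reported here.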

Additional observations from a re-analysis of the deposited data

Results flagged for a closer look

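Among the tumors, 3 values stood far from the other 5 of the same gene. Phgdh was at 20.1 CPM in M6, beside 1.36 to 7.97 CPM in the other tumors and 24.3 CPM in NI1. Mthfd2 was at 107 CPM in M2, beside 21.5 to 33.9 CPM. Aldh1l2 was at 34.7 CPM in M2, beside 1.16 to 5.95 CPM. In each case the gap to the nearest tumor took up more of the range of the 6 tumors than Dixon's critical value allows at the 95% level. All 9 genes were looked at in this way, and chance alone sets apart about 1 in 20 groups where values are normally distributed. The gaps were taken on CPM and not on a log scale, where gaps at the high end are smaller. The flags therefore hold for CPM only. What sets M2 and M6 apart was not tested. M2 differs from the other tumors in sex, and M6 is the library nearest to NI1.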

How the results depend on the processing

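Phgdh kept its negative log2 fold change, from -3.97 to -2.53, under all 17 alternatives with the islets as labelled, and Shmt1 its positive one, from 1.30 to 2.70. Their calls depended on NI1. Of the 9 genes, 0 were called in tumors against islets with every library, 0 to 2 with 1 library left out, 2 by DESeq2 and 2 without M6 and NI1. Without NI1, 2 were called, 4 by DESeq2 and 0 to 4 with 1 further library left out: 0 without NI2, 0 without NI3 and 4 without M2. In functional tumors the count of 0 became 2 by DESeq2, 1 with no filter on low counts, 0 to 2 with 1 library left out and 2 without M6 and NI1. In non-functional tumors it became 1 by DESeq2, 0 to 1 with 1 library left out and 2 without M6 and NI1. Of the pathway genes, 0 became 1 on library totals only, 1 with no filter, 8 by DESeq2, 0 to 15 with 1 library left out and 14 without M6 and NI1. The cause of the tool's effect was not tested.

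Signs turned only for Shmt2, Mthfd1 and Psat1, which no setting called. Shmt2 went to 0.19 on library totals only (0.08 without NI1) and to between 0.00 and 0.08 without M1, M3, M6, NI2 or NI3 (0.0033, 0.0096, 0.035, 0.019 and 0.076), with -0.33 without M2 at the other end. Mthfd1 ran from -0.44 without M6 to 0.034 without NI1. With NI1 left out it then turned to -0.027 by limma-voom, -0.0029 without M2, -0.185 without M6 and -0.191 without NI2, with 0.28 without NI3. Psat1 then ran from -0.068 without M2 to 0.52 without NI3 among sets with 1 further library left out, and was 0.63 on library totals only. Library totals alone raised the median of all genes from 0.03 to 0.25.

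A replicate block on the shared numbers of M1 to M3 and NI1 to NI3 gave 0 calls, as without it. The numbers do not pair the libraries: deviations of equal numbers correlated at -0.05, 0.03 and -0.16. With 2 or 3 islet libraries, small changes were not detectable.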
